A study of Bos taurus with 20 samples.

Results

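The let-7 family was examined in spermatozoa of Holstein-Friesian bulls, in a table of mature microRNAs (miRNAs) measured by small RNA sequencing. The members were every mature miRNA of the table whose name begins with let-7, together with miR-98, which made 10 of the 1029 miRNAs listed. The bulls were of high fertility (HF, n = 10) or low fertility (LF, n = 10), as ranked by the study on a fertility score adjusted for herd, parity and similar factors. Each bull gave 1 library, made from frozen-thawed semen straws of several ejaculates pooled together, so that bulls were the replicates. All were untreated animals of the same breed, and the AI center that held each bull is not in the labels used here. Purification included a buffer that lyses somatic cells.

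The let-7 miRNAs are among the most conserved miRNAs of animals. A mature let-7 is cut from a hairpin precursor and loaded into an Argonaute protein, where its seed, the short stretch near the 5′ end that members of the family and miR-98 share, pairs with target mRNAs and lowers their translation and stability. The family is known for promoting differentiation and restraining growth genes such as HMGA2, RAS genes and LIN28, the latter being in turn a protein that blocks let-7 maturation. Several members are encoded more than once, and many are encoded in clusters with miRNAs of the miR-99/100 and miR-125 families. Because mature let-7 sequences are very similar, reads of one member may be counted for another, and the level of any single member is uncertain to that extent.

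Values are TMM-normalised counts, that is CPM (counts scaled to the size of the library) after TMM, a further scaling between libraries. The libraries held 103204 to 3097581 reads counted on miRNAs, with medians of 1092881 in HF and 1085742 in LF. Of these, 3 libraries had fewer than 500000 reads, namely HF replicate 17 with 103204, LF replicate 11 with 310186 and LF replicate 13 with 438649. A count of 3 reads, taken here as a floor for a count of 0, was worth between 1.19 and 27.6 normalised counts depending on the library. Marker miRNAs of sperm and late germ cells (4 of 4 found in the table) held 4.82% ± 0.870 of the normalised counts in HF and 4.34% ± 1.00 in LF (SD, n = 10 each). Those of epithelium (7 of 7) held 2.11% and 2.29%, those of muscle (6 of 6) 0.0494% and 0.0553%, and those of blood and immune cells (6 of 6) 0.0131% and 0.0143%, with no listed marker at 0 in every library. The part of other cells in the levels below was not tested. Within a bulk library, fewer cells carrying a miRNA and less of it per cell cannot be told apart.

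All 10 members were detected in all 20 libraries. Together they made up 2.02% ± 0.426 of the normalised counts (SD, n = 20). The share ran from 1.30% through a median of 1.89% to 2.90% in HF, and from 1.39% through 2.11% to 2.55% in LF, so that the groups overlapped along most of their range. HF replicate 15 held the highest share and HF replicate 2 the lowest. No member was among the 20 most abundant miRNAs of the table, and 4 were among the first 50.

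The main guide strand of let-7a, let-7a-5p, was the most abundant member. Its normalised count was 4029 in the lowest HF bull, 5531 at the HF median and 10331 in the highest, against 3303, 6450 and 8566 in LF. The HF bulls lay close together apart from HF replicates 15, 16 and 17, and the LF bulls were spread more evenly. It made up 30.6% ± 3.44 of the family total (SD, n = 20).

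Next came let-7b and let-7c. The let-7b count ran from 2823 through 4660 to 6299 in HF and from 3373 through 4525 to 5405 in LF, and the HF range enclosed the LF range. The let-7c count ran from 2978 through 3654 to 6436 in HF and from 2032 through 4313 to 6068 in LF. The 3 most abundant members held most of the family total, with shares of 30.6%, 23.5% and 20.0%. The share of let-7b was the most variable of these, from 16.0% in HF replicate 16 to 39.2% in LF replicate 11.

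The middle of the order held let-7i, let-7a-3p, let-7g and let-7f. The let-7i count ran from 797 through 1913 to 2510 over the 20 bulls, with LF replicate 11 at the lowest value and all HF bulls at 1333 or more. The let-7g count ran from 599 through 1044 to 1627 and the let-7f count from 344 through 776 to 1319. The other strand of the let-7a hairpin, let-7a-3p, is usually the one discarded when the guide strand is loaded. It ran from 761 through 1104 to 1644, and it amounted to between 11.1% and 31.9% of let-7a-5p in the same library, with a median of 19.7%. It was the only let-7 row of the table named as a 3p strand, and its mean of 1139 ± 267 (SD, n = 20) stood above those of let-7f, let-7d, let-7e and miR-98.

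At the lower end, let-7d ran from 46.0 through 151 to 261 and let-7e from 36.8 through 115 to 188. The count of miR-98 ran from 6.18 through 36.7 to 78.2. These 3 members rested on few reads in the shallow libraries, with 5 reads of let-7d and 4 of let-7e in HF replicate 17, and 2 reads of miR-98 in each of HF replicate 17 and LF replicate 11. The other 7 members had at least 10 reads in every library.

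**Figure D1:**
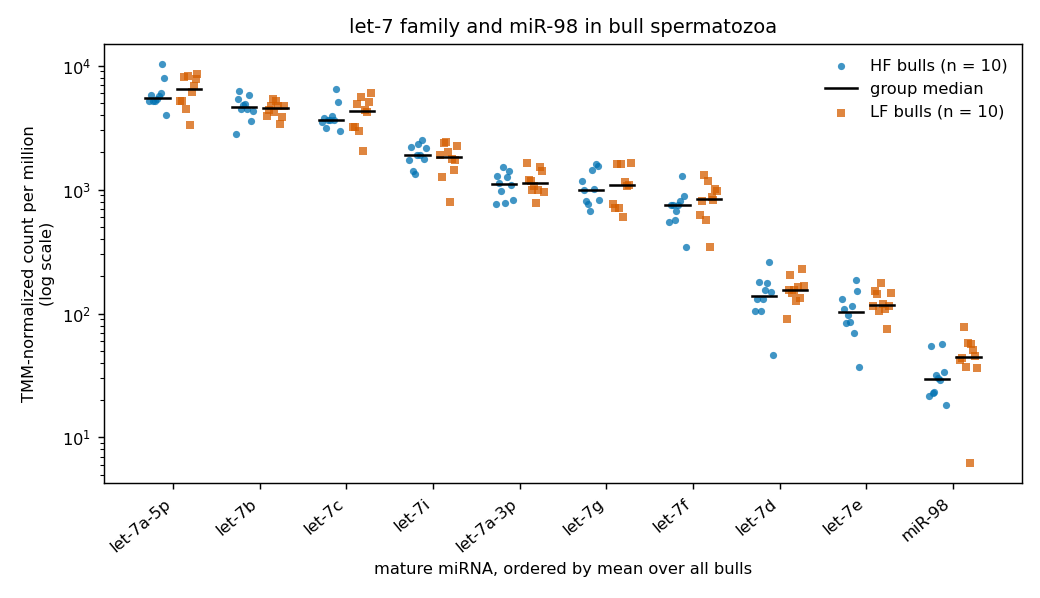
TMM-normalised count (CPM) (log scale) of each member in every bull, with HF bulls as circles, LF bulls as squares and a bar at each group median. The members span from about 10331 for let-7a-5p in 1 HF bull down to 6.18 for miR-98 in 1 LF bull, and the HF and LF bulls overlap for every member.

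The order of the members was compared step by step within libraries, by a two-sided sign-flip permutation test over the 20 bulls with Benjamini-Hochberg adjustment over the 9 neighbouring pairs. Of the 9 steps, 7 passed. Let-7a-5p exceeded let-7b by 1.33-fold on average, in 16 of 20 bulls (adjusted permutation p = 0.0032). The widest step lay between let-7f and let-7d, where let-7f was 5.22-fold higher and higher in 20 of 20 bulls (adjusted permutation p = 1.8e-05, from the smallest p the resamples can give). Let-7e exceeded miR-98 by 3.11-fold, also in 20 of 20 bulls. The order of let-7b and let-7c did not hold beyond its spread, with let-7b higher in 12 of 20 bulls (1.15-fold, adjusted permutation p = 0.12), and neither did that of let-7a-3p and let-7g (1.07-fold, 12 of 20 bulls, adjusted permutation p = 0.47).

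The spread between bulls differed among members. The coefficient of variation was 18.3% for let-7b, the lowest, and between 23.4% and 33.9% for let-7a-3p, let-7i, let-7c, let-7a-5p, let-7e, let-7d, let-7g and let-7f. For miR-98 it was 44.0%. Counting error at the median number of reads accounted for little of this in the abundant members, at 1.21% for let-7a-5p and 1.41% for let-7b, and for more in the rare ones, at 7.55% for let-7d, 8.61% for let-7e and 15.2% for miR-98.

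The deposited values also carry a trace of how members with several precursor genes were counted. In the bovine RefSeq annotation (ARS-UCD2.0), let-7a has 3 precursor genes (MIRLET7A-1, MIRLET7A-2 and MIRLET7A-3) and let-7f has 2 (MIRLET7F-1 and MIRLET7F-2). The recovered read number of let-7a-5p was whole in 4 libraries and a multiple of one read divided by 3 in the other 16. That of let-7f was whole in 8 libraries and a multiple of 0.5 reads in 12, and that of let-7a-3p was whole in 15 and a multiple of 0.5 in 5. All 7 members with 1 precursor gene had whole reads in 20 of 20 libraries. The values of let-7a and let-7f thus had the arithmetic of averages over precursors, and the levels of let-7a-5p and let-7f relative to the other members depend on that averaging.

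The central comparison of the study was HF against LF bulls. No family member passed the limma test used here for a difference between the groups. The study, which used edgeR, did list miR-98 among its differentially expressed miRNAs. Of the 10 members, 3 were higher in HF and 7 were lower, none of them by the study's criteria of an unadjusted p under 0.05 with a fold change over 1.5 (limma on log2 of the normalised count + 1). The same criteria called 9 of the 435 miRNAs tested, or 2.07%, and none of the 435 passed after Benjamini-Hochberg adjustment (15 miRNAs, or 3.45%, and 0 of the 10 members had an unadjusted p under 0.05, and edgeR and DESeq2 on recovered reads also gave 0 adjusted calls). The smallest unadjusted p of a member was 0.18, for let-7e, and the smallest adjusted p was 0.94 in limma. The median log2 difference of the members was -0.08, beside 0.01 over all 435 miRNAs, of which 49.9% were lower in HF.

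Among the abundant members the differences were small and their intervals narrow. The let-7a-5p level was 6086 ± 1800 in HF and 6375 ± 1817 in LF (SD, n = 10 each), a log2 difference of -0.05 ± 0.18 (SE). That of let-7b was 4693 ± 1028 and 4459 ± 631, a log2 difference of 0.05 ± 0.14. For let-7c the log2 difference was -0.03 ± 0.18, for let-7g 0.01 ± 0.21 and for let-7a-3p -0.10 ± 0.16. Let-7i had the most positive difference, at 0.14 ± 0.18 with 6 of 10 HF bulls above the LF median.

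The less abundant members leaned lower in HF without passing the test. Let-7f counts were 737 ± 250 in HF and 849 ± 289 in LF (log2 difference -0.19 ± 0.23), and 8 of 10 HF bulls lay below the LF median. That number was also 8 of 10 for the abundant members let-7a-5p and let-7c, so it did not set the less abundant members apart. For let-7d the log2 difference was -0.21 ± 0.24 and for let-7e -0.32 ± 0.23, each with 7 of 10 HF bulls below the LF median. HF replicate 17, the shallowest library, held the lowest value of both, and its counting interval for let-7e ran from 10.0 to 94.1 normalised counts (exact Poisson, 95%, counting error only). Leaving that bull out brought let-7d to -0.04 and let-7e to -0.16. For the 9 members other than miR-98, the 95% intervals of the fold change of HF over LF all lay between 0.575 and 1.42.

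**Figure D2:**
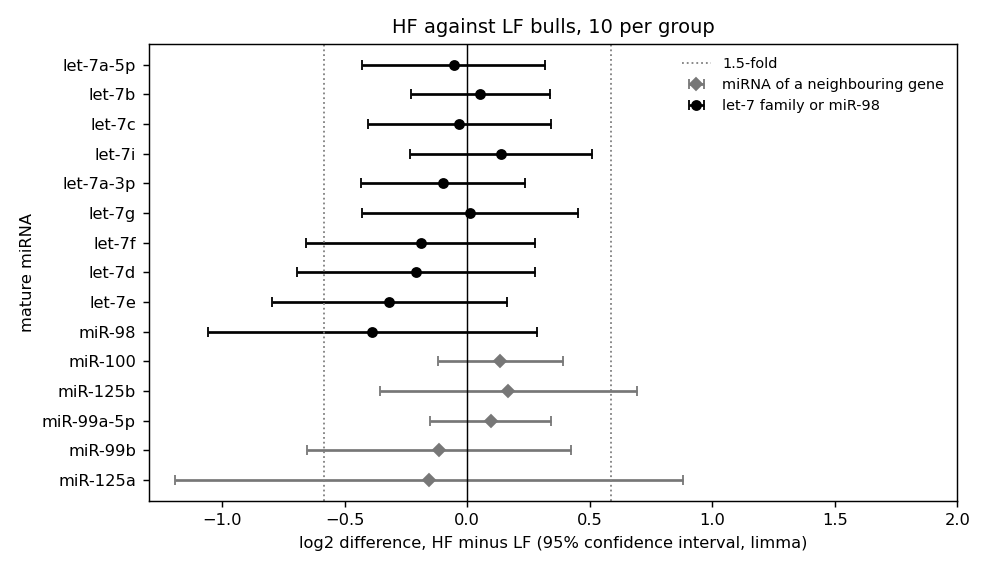
Log2 difference in normalised count, HF minus LF, with its 95% confidence interval from limma, for the 10 members (circles) and 5 miRNAs encoded beside them (diamonds). Every interval crosses 0, and that of miR-98 is the widest among the members, from -1.06 to 0.28.

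The widest interval belonged to miR-98, a let-7 relative encoded beside MIRLET7F-2. Its level was 18.4 in the lowest HF bull, 29.6 at the median and 57.0 in the highest, against 6.18, 44.6 and 78.2 in LF. The 10 LF values included both the lowest and the highest of the series. The fold of HF over LF had a 95% interval from 0.480 to 1.22, with 8 of 10 HF bulls below the LF median (limma, p = 0.24, adjusted p = 0.94). In tests that weigh libraries by their reads the unadjusted p was lower, at 0.089 in edgeR's quasi-likelihood test and 0.051 in DESeq2, without passing 0.05.

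Of all single bulls, leaving out LF replicate 11 changed the miR-98 difference most. Whether a low level in that bull or its shallow library lay behind this was not tested. LF replicate 11 had 2 miR-98 reads, with a counting interval of 0.748 to 22.3 normalised counts (exact Poisson, 95%), whose upper end lay below the next LF bull at 36.2. An outlier rule (Dixon) applied to the normalised counts set no bull apart in the 22 groups of 10 examined. On that scale LF replicate 11 is not an established outlier. The rule was not applied to the log2 values that the fits used, so it cannot say whether this bull stands apart there. The 9 other LF bulls averaged 49.8 ± 13.1 (SD), and 8 of 10 HF bulls fell below the lowest of them. LF replicate 11 was picked out by its low miR-98 value, so leaving it out widens the difference by construction. Neither this count nor the fit without it can be taken as support for a difference between the groups. Without LF replicate 11 the miR-98 difference met the study's criteria (log2 -0.67, limma p = 0.0077, adjusted p = 0.89), as did 14 of 445 miRNAs tested without that library, or 3.15%. Of 20 fits that each left out 1 bull, this was the only 1 with a limma p under 0.05 for miR-98. Without the 3 libraries under 500000 reads the miR-98 difference was -0.56 (limma p = 0.021), under the fold criterion. HF replicate 17 also had 2 reads, but at its depth these were worth 18.4 normalised counts with an interval of 2.23 to 66.4, which spans all HF bulls and most LF bulls.

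**Figure D3:**
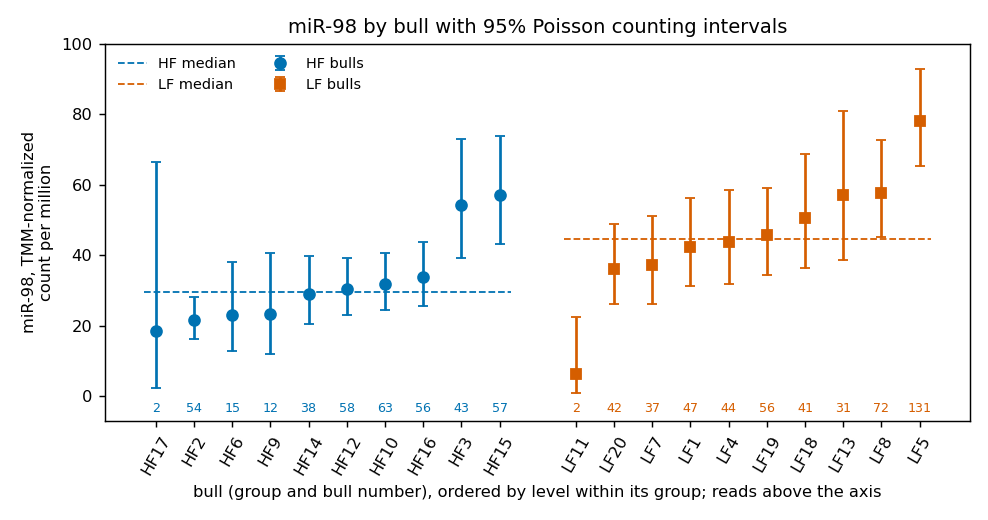
Normalised count (CPM) of miR-98 in each bull, ordered within its group, with 95% exact Poisson counting intervals, the number of reads printed above the axis and dashed lines at the group medians of 29.6 (HF) and 44.6 (LF). LF replicate 11 sits below every other bull, and HF replicate 17 has an interval from 2.23 to 66.4.

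Ratios within a library are free of the scaling between libraries, so miR-98 was also compared with each other member in the same bull. The log2 ratio of miR-98 to another member was lower in HF for 9 of 9 members, by between 0.07 (let-7e) and 0.53 (let-7i). The let-7i ratio was -5.92 ± 0.43 in HF and -5.40 ± 0.65 in LF (SD, n = 10 each), and 10 of 10 HF bulls lay below the LF median, as also for let-7b. By a two-sided permutation test the let-7i ratio had p = 0.048 and adjusted p = 0.40 over the 9 members, and 0 of 9 ratios passed after adjustment (1 of 9 at an unadjusted p under 0.05). Without LF replicate 11, 7 of 9 ratios passed an exact permutation test after adjustment, with a smallest adjusted p of 0.020, all but those to let-7d and let-7e. LF replicate 11 was picked out by its low miR-98 value, which enters all 9 ratios. The count of 7 therefore cannot be taken as support for a difference between the groups. Without the 3 shallow libraries 0 of 9 passed, and 7 of 9 had an unadjusted p under 0.05 (exact permutation test, smallest adjusted p = 0.055). Since these ratios all contain the same miR-98 values, they were not separate observations.

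Members were then compared with miRNAs of the miR-99/100 and miR-125 families whose genes lie within 100000 bases of theirs in the RefSeq annotation. Other genes within that distance, MIR135A-1 beside MIRLET7G, MIR2443 and MIR3596 beside MIRLET7A-3 and MIRLET7B, and MIR12038 beside MIRLET7E, were not on the list of partners and were not compared. MIRLET7A-2 lies beside MIR100 and MIR125B-1, MIRLET7C beside MIR99A and MIR125B-2, and MIRLET7E beside MIR99B and MIR125A. The miR-99/100 family members are known for targeting MTOR, and miR-125 miRNAs are relatives of the worm timing miRNA lin-4. Of 7 mature partners listed, 6 were in the table and 5 passed the filter on low values, and 0 of the 5 were called between HF and LF.

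In each of these 3 clusters, the miRNA of the miR-99/100 family exceeded the let-7 member. The count of miR-100 was between 37.6 and 129 times that of let-7a-5p in the same library, with a median of 65.4. MiR-99a-5p was between 7.33 and 19.9 times let-7c (median 10.9) and miR-99b between 2.39 and 15.4 times let-7e (median 6.64), and each of these 3 held in 20 of 20 bulls. The miR-125 members stood closer, with miR-125b at 0.884 to 5.67 times let-7a-5p (median 2.88) and miR-125a at 0.472 to 7.30 times let-7e (median 1.95, above 1 in 17 of 20 bulls). As miR-125b and let-7a-5p each come from more than 1 gene, their ratio covers several loci. Within the clusters made of family members alone, let-7f was between 13.7 and 55.8 times miR-98, the highest ratio being that of LF replicate 11, and between 2.72 and 7.50 times let-7d.

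**Figure D4:**
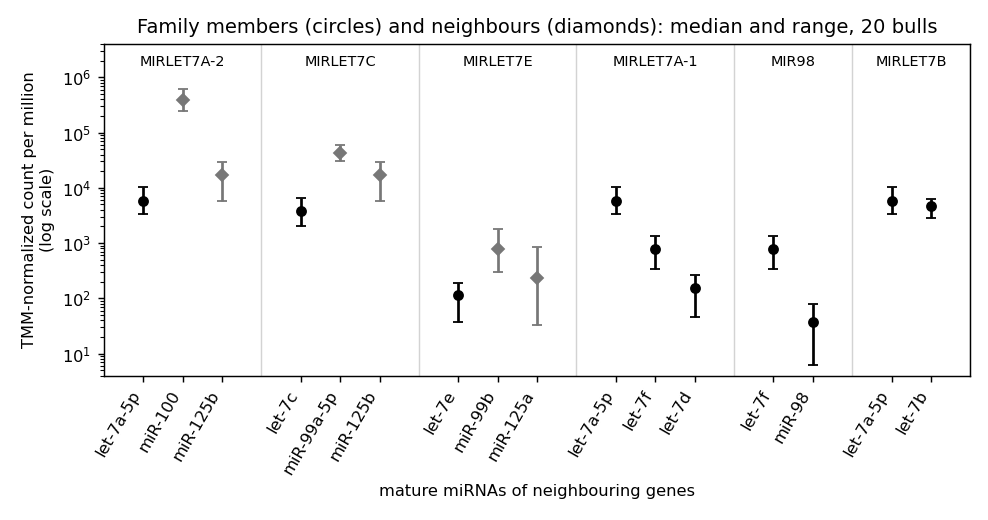
Median and range over the 20 bulls of the normalised count (CPM) (log scale) of mature miRNAs whose genes neighbour each other, with members as circles and neighbours outside the family as diamonds, under the name of 1 let-7 or miR-98 gene of each cluster. The miR-99/100 miRNA stands above the let-7 member in the 3 clusters that hold one, by a median of 65.4, 10.9 and 6.64 times, and miR-125b, let-7a-5p and let-7f appear in more than 1 cluster because they have more than 1 gene.

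Sharing a cluster did not go with a shared pattern over bulls in every case, and some members whose genes are not neighbours also shared one. Let-7c, for example, correlated with let-7f at r = 0.86 and with let-7g at r = 0.87, but not with let-7b (r = -0.12). Of 8 pairs made from neighbouring genes, 4 correlated over the 20 bulls (log2 values, two-sided permutation tests adjusted over the 8 pairs). As let-7a-5p and let-7f each come from more than 1 gene, pairs that hold them cover several loci. Let-7a-5p and let-7f correlated at Pearson r = 0.93 and Spearman rho = 0.93 (adjusted permutation p = 4e-05 each), and at r = 0.89 without the 2 bulls farthest from the let-7a-5p median. Let-7d and let-7f correlated at r = 0.79 and rho = 0.83 (r = 0.66 without the farthest 2), and miR-98 and let-7f at r = 0.83 and rho = 0.75 (r = 0.73 without them). Each of these held within both groups, with r of 0.91 in HF and 0.94 in LF for let-7a-5p and let-7f, 0.96 and 0.63 for let-7d and let-7f, and 0.78 and 0.87 for miR-98 and let-7f.

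Of the pairs with a miRNA outside the family, let-7e and miR-125a correlated at r = 0.58 and rho = 0.58 (adjusted permutation p = 0.013 and 0.016), with r = 0.58 without the farthest 2, 0.60 in HF and 0.59 in LF. Let-7e and miR-99b did not pass (r = 0.43, rho = 0.41, adjusted permutation p = 0.093 and 0.11), and their r was 0.10 without HF replicates 17 and 14. Let-7a-5p and miR-100 gave r = -0.24 (rho = -0.36, adjusted permutation p = 0.40 and 0.17), and let-7c and miR-99a-5p gave r = -0.06 (rho = -0.11, adjusted permutation p = 0.79 and 0.75). Let-7a-5p and let-7b, whose genes MIRLET7A-3 and MIRLET7B adjoin, gave r = -0.09 (rho = -0.06, adjusted permutation p = 0.79 and 0.79), with 0.18 in HF and -0.45 in LF.

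All 45 pairs of members were compared in the same way, a comparison added after the data had been seen. Of these, 22 passed by Pearson's r and 12 by both r and rho after adjustment over the 45. The 12 comprised the 3 pairs among let-7a-5p, let-7c and let-7f, and the pairs of each of these 3 with let-7g, let-7d and miR-98. The count by r was 13 without HF replicate 15, which held the highest value of 5 members, 19 without LF replicate 11, which held the lowest of 6, and 9 without the 3 shallow libraries. All of these 9 were among the 12. The correlation of library depth with a member did not pass for any of the 10 after adjustment (smallest adjusted permutation p = 0.081). Its r was 0.25 to 0.58 and its rho 0.12 to 0.39 for the 9 members other than let-7b, and r was -0.29 for let-7b. Without the 2 bulls farthest in depth, r was 0.10 for let-7a-5p, 0.09 for let-7c, -0.01 for let-7f and -0.08 for let-7d. It was -0.16 for let-7a-3p and -0.18 for miR-98. It stayed at 0.35 for let-7i, 0.27 for let-7g and 0.26 for let-7e, and was -0.42 for let-7b. The part of depth in the correlations between members was not tested.

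The abundant members let-7c and let-7b stood at opposite ends of this pattern. Let-7c followed let-7a-5p at r = 0.97 and rho = 0.95 (r = 0.96 without the 2 farthest bulls, 0.97 in HF and 0.99 in LF). The ratio of let-7a-5p to let-7c was 1.53 ± 0.099 (SD, n = 20) and ran only from 1.35 to 1.68, a coefficient of variation of 6.48%, where counting error alone would give 1.97%. Among the 12403 pairs of the 158 miRNAs with at least 10 reads in every library, 9 had a smaller SD of the log2 ratio. The genes of these 2 members are not neighbours in the annotation, and how far their reads were shared was not tested. For let-7b, in contrast, 0 of 9 pairs passed adjustment over the 20 bulls (r from -0.17 to 0.33), although its level did not differ from that of let-7c beyond the spread. The pooled value covered opposite ones in the case of let-7b and let-7a-3p, with r = 0.02 over all bulls, 0.54 in HF and -0.84 in LF. This pair was picked from the 45 after the values had been seen, and the difference between groups was not tested. Without HF replicates 2 and 6, the 2 bulls farthest from the let-7b median, r over the remaining bulls was -0.29. The ratio of let-7a-5p to let-7b ran from 0.631 to 2.25, with a coefficient of variation of 33.5%.

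**Figure D5:**
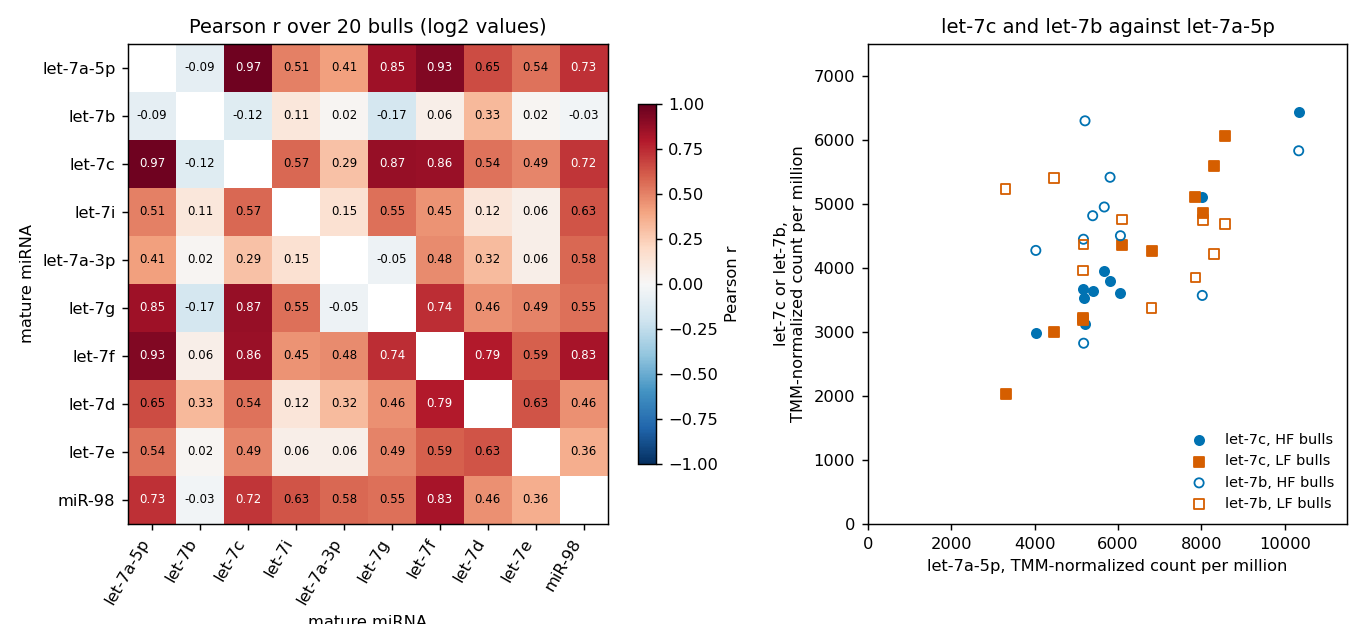
Left, Pearson r over 20 bulls between the log2 normalised counts of each pair of members. Right, let-7c (filled) and let-7b (open) against let-7a-5p, in TMM-normalised counts (CPM), with HF bulls as circles and LF bulls as squares; let-7c follows let-7a-5p (r = 0.97) while let-7b does not (r = -0.09).

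Some bulls were extreme for several members at once. LF replicate 11 ranked 20 of 20 for let-7a-5p, let-7c, let-7i, let-7g, let-7f and miR-98, and 5 of 20 for let-7b and 8 of 20 for let-7e. HF replicate 15 held the highest value of let-7a-5p, let-7c, let-7i, let-7d and let-7e and ranked 2 of 20 for let-7b, let-7g and let-7f. HF replicate 2, the deepest library, was lowest for let-7b and let-7a-3p.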

How the data were processed

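Small RNA of spermatozoa from 20 bulls (10 HF, 10 LF, 1 library each) was sequenced. The authors trimmed adapters, removed other small RNA classes, mapped reads with Bowtie to ARS-UCD1.2 with a Y chromosome and counted bovine miRBase miRNAs with miRDeep2. Their processing notes name FastQC 0.11.8, cutadapt 2.6, R 3.4 and edgeR 3.5. The deposited signal values are TMM-normalised counts (CPM after TMM scaling). Whole reads were recovered by dividing each library by its commonest low value, and 95.0% of values above 0 were then whole within 0.01 reads. Precision was set by 103204 to 3097581 reads per library. Counting intervals are exact Poisson and cover counting error only, since PCR copies were not removed by molecular identifiers.

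HF and LF, taken from the labels, were compared by limma 3.58.1 (variance trend) on log2(normalised count + 1), a scale that understates the change of low miRNAs, in R 4.3.3. A miRNA was tested with a normalised count of at least 1 in more than 50% of libraries (435 of 1029, all 10 members included). Named miRNAs were the members, the neighbouring miRNAs, miR-202 and the 3 miRNAs outside the family most like the leading member. Alternatives were edgeR 4.0.16 and DESeq2 1.42.0 on recovered reads, rounded to whole numbers, other scalings, pseudocounts of 0.5 and 5, other filters, and leaving out libraries. Single values were tested by permutation (100000 resamples, or all regroupings with fewer than 10 bulls in a group). The fits were tested on simulated data. Sequences were not used here. The members, lists and tests were chosen with earlier results of these data known.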

Additional observations from a re-analysis of the deposited data

How the results depend on the processing

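No member passed both criteria under any of the alternatives that kept all libraries or left out the shallow ones, and of the 97 member differences so recomputed, 91 kept their direction and side of the threshold. The other 6 were close to 0 and turned negative. They were let-7b under CPM scaling without TMM (-0.0090), let-7g under DESeq2 (-0.024), without TMM (-0.051), without both TMM and miR-100 (-0.0033) and without the 3 libraries under 500000 reads (-0.026), and let-7i without those 3 (-0.018). The cause was not tested. Every scaling moved the median of all miRNAs by less than 0.1.

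Leaving out each bull in turn called 0 to 1 members, the 1 being miR-98 without LF replicate 11, 0 partners and 7 to 15 of all miRNAs. The number of miR-98 ratios past adjustment ran from 0 to 7. Log2 differences ran from -0.15 to 0.0060 for let-7a-5p, from -0.14 to 0.036 for let-7c, from -0.075 to 0.085 for let-7g and from -0.67 to -0.28 for miR-98. That of the ratio of miR-98 to let-7e ran from -0.35 to 0.046. The count of all miRNAs called was 4 with a pseudocount of 5, 15 of 731 without the filter and 0 of 158 with 10 reads in every library, where let-7d, let-7e and miR-98 were no longer tested. The family share was 3.33% of the counts left after removing miR-100 from the total, by construction. Without TMM and miR-100, let-7a-5p and miR-100 correlated at r = -0.55 (permutation p = 0.012), where the main value had not passed. The number of member pairs that correlated was 13 to 19 when HF replicate 15 or LF replicate 11 was left out, and 9 without the shallow libraries, which also left 17 bulls. No paired analysis was possible because HF and LF bulls carry different numbers and no label ties a bull of one group to one of the other.

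Depth limited miR-98, let-7d and let-7e most, with as few as 2, 5 and 4 reads in a library.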

Other observations

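Outside the family, the miRNAs whose levels over the 20 bulls were most like those of let-7a-5p, among 151 candidates with at least 10 reads in every library, were miR-20a (rho = 0.87), miR-26a (rho = 0.86) and miR-30c (rho = 0.85). These are given as a description, since they were picked as the highest of the 151, and the values share the libraries and their depth. Without the 2 bulls farthest from the median, Pearson's r was 0.79 for miR-20a, 0.79 for miR-26a and 0.78 for miR-30c.

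The normalised count of miR-202 was 126 ± 98.6 in HF and 118 ± 74.8 in LF (SD, n = 10 each), with a log2 difference of -0.02 (limma p = 0.97, adjusted p = 0.99). It ran from 27.8 to 298 over the 20 bulls, a wider spread (coefficient of variation 70.0%) than that of any member.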
